A study of Canis lupus familiaris with 6 samples.

Results

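PLA2R1, PLA2G5, SLC6A6 and PLPPR2 are 4 of the 34981 genes counted in single-cell libraries of dog neural retina. They were chosen by their UMI counts (unique molecular identifiers, one per captured transcript), which were lower in retina lying over a subretinal graft than in graft-free retina of these same libraries, so every difference between these punches given for them is a description and carries no test. The tested punches, called over graft, were 5 mm pieces of neural retina taken directly above fragments of human retinal organoids, which had been placed under the retina 3 days earlier. The control punches were 5 mm pieces from an area without graft. All dogs had genetically normal retinas and were immunosuppressed, controls included, and the control tissue is therefore not retina of an untreated animal. The organoids came from WA09, a single human embryonic stem cell line carrying a CRX-tdTomato reporter. There were 3 experiments, named LG5, RC726 and RC724, each with 1 punch of either kind, which gave 6 libraries. The sources used here do not state whether each experiment used another dog, nor the dogs' age.

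PLA2R1 encodes the M-type receptor that binds secreted phospholipases A2 and belongs to the mannose receptor family. PLA2G5 encodes group V phospholipase A2, a secreted enzyme that cleaves fatty acids from membrane phospholipids, and its loss in humans causes a fleck retina. SLC6A6 encodes the sodium- and chloride-dependent taurine transporter. Taurine is the most abundant free amino acid of the retina, and mice without the transporter lose their photoreceptors. PLPPR2 encodes a membrane protein related to the lipid phosphate phosphatases, which act on bioactive lipids such as lysophosphatidic acid. In the RefSeq annotation of the dog assembly UU_Cfam_GSD_1.0, PLA2R1 overlaps LOC111094230 and SLC6A6 overlaps LOC111091230, and reads that could belong to either gene of such a pair cannot be told apart here. PLA2G5 lies between the related genes PLA2G2D and PLA2G2E, while PLPPR2 has EPOR and SWSAP1 on one side and CCDC159 and TMEM205 on the other.

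The deposited libraries held 8778 to 23908 barcodes and 34768162 to 60755006 UMIs, and no barcode had fewer than 500 UMIs. Any pair of libraries shared 17 to 102 barcodes, at most 0.677% of the smaller one. Barcodes were assigned to a class by their share of UMIs from the marker genes of 12 cell types, with limits that were set on these data, so a class is called rod-like, cone-like or the like and not by a cell type alone. Between 65.2% and 79.7% of the retained barcodes of a library passed exactly 1 class limit. Rod-like barcodes numbered 6752 over graft and 6205 in control for LG5, 5733 and 5816 for RC726, and 5209 and 4315 for RC724. Of the 10 genes that led each class, 7 were the class's own markers in rod-like and in cone-like barcodes, 1 was (GLUL) in Müller glia-like barcodes, and none of the 6 classes compared had a marker of another class among them. The class limits used these same markers, so this describes the classes and is no check of them. Between 4.93% and 18.0% of the rod-like barcodes of a library lay within 25% above the limit. The LG5 libraries stood apart in depth, with a median of 881 UMIs per rod-like barcode over graft and 870 in control, against 1719 to 2226 in the other libraries. They also stood apart in the estimated share of free RNA, from broken cells, in rod-like barcodes. It was 25.7% over graft and 28.1% in control, against 3.73% to 5.56% in the other libraries.

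PLA2R1 was highest in rod-like barcodes, and its level there was lower over graft than in control in each experiment. Summed over rod-like barcodes, it reached 47.0 CPM (counts scaled to 1e+06 UMIs of the class in that library) over graft and 306 CPM in control in LG5, 269 and 553 CPM in RC726, and 99.7 and 629.8 CPM in RC724. The highest library over graft lay below the lowest control library, so the groups did not overlap. Of all genes fitted in rod-like barcodes, 9.47% were called lower over graft (edgeR, adjusted p under 0.05). That is a share of calls. The share of all genes whose groups did not overlap was not computed, here or for any gene and class below. The mean was 139 ± 116 CPM over graft and 496 ± 169 CPM in control (SD, n = 3 each). On log2(CPM + 1), the difference averaged -2.12 ± 0.94 (SD, n = 3 pairs), with -2.68 in LG5, -1.04 in RC726 and -2.65 in RC724. RC726, the experiment with the smallest difference, is also the only one whose punches were counted with different versions of Cell Ranger, and the part of that in the result was not tested. The counts behind these levels were 401 to 4286 UMIs over graft and 2543 to 7618 in control. An exact Poisson interval, which covers counting error only, ran from 42.5 to 51.8 CPM for the lowest library.

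The share of rod-like barcodes with a PLA2R1 UMI followed the level. It was 5.12% over graft (95% Wilson interval 4.62 to 5.68%) and 28.6% in control (27.5 to 29.8%) in LG5. In RC726 it was 38.9% over graft (37.6 to 40.1%) and 56.7% in control (55.4 to 58.0%). In RC724 it was 17.4% over graft (16.4 to 18.4%) and 59.6% in control (58.1 to 61.1%). These intervals cover only the sampling of barcodes within 1 library. They do not measure the spread between punches or experiments. With every barcode thinned to 500 UMIs, so that depth is equal, the shares were 2.22% and 13.7% in LG5, 11.7% and 21.7% for RC726, and 4.51% and 24.99% for RC724, over graft and in control. The gap between punches thus stood at equal depth, and the RC726 punch over graft came closest to its control. Among barcodes with the transcript, the mean number of UMIs was 1.16 over graft and 1.43 in control for LG5, 1.92 and 2.31 for RC726, and 1.53 and 2.26 for RC724.

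The other classes held much less PLA2R1. In control, rod-like barcodes ranked first, cone-like barcodes second with 92.5 ± 24.8 CPM (SD, n = 3), and the ranges of these neighbours did not overlap. Bipolar-like, Müller glia-like, horizontal-like and amacrine-like barcodes followed with means between 16.6 and 25.9 CPM and overlapping ranges. In Müller glia-like barcodes, whose median depth was 2338 to 19997 UMIs, the thinned share was 0.134% to 0.729% over graft and 0.619% to 1.33% in control. Free RNA from broken cells can give such UMIs. Its share was estimated from the rod markers seen in Müller glia-like barcodes and subtracted. PLA2R1 then came out below 0 in all 6 libraries, so the level there was not above this estimate, called background below. Whether the rod markers came from free RNA or from doublets was not tested. Cone-like barcodes had 15.7 CPM over graft and 67.6 CPM in control in LG5, 66.7 and 92.9 CPM in RC726, and 23.3 and 117 CPM in RC724. They remained above the free RNA estimate in each library, at 16.3 to 58.5 CPM over graft and 37.4 to 110.3 CPM in control after subtraction.

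**Figure D1:**
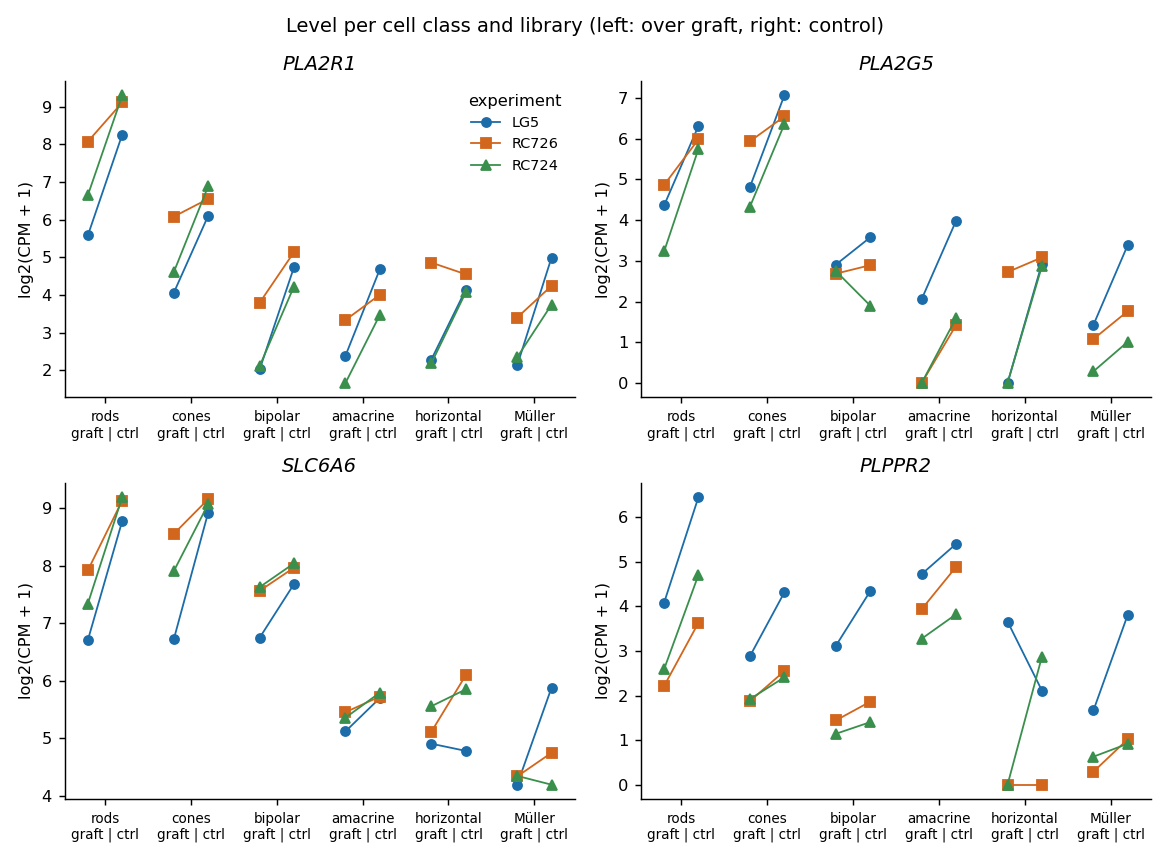
Levels of the 4 genes on log2(CPM + 1) in 6 marker-gated classes (x axis), with the punch over graft on the left and the control punch on the right of each class. Lines join the punches of an experiment. PLA2R1 is highest in rod-like barcodes, PLA2G5 and SLC6A6 are high in rod-like and cone-like barcodes, and in these classes every line ends higher on the control side.

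PLA2G5, the secreted enzyme, was found in both photoreceptor classes and was lower over graft in both. In rod-like barcodes it had 19.6 CPM over graft and 78.7 CPM in control in LG5, 28.2 and 62.5 CPM in RC726, and 8.40 and 52.9 CPM in RC724. Every library over graft lay below every control library. The mean was 18.7 ± 9.91 CPM over graft and 64.7 ± 13.1 CPM in control, a difference of -1.86 ± 0.70 on log2(CPM + 1) (SD, n = 3 pairs). In cone-like barcodes it had 27.2 CPM over graft and 133 CPM in control in LG5, 60.3 and 92.6 CPM in RC726, and 19.2 and 80.9 CPM in RC724. The groups did not overlap there either, and the log2 difference averaged -1.63 ± 0.89, with the smallest value, -0.61, in RC726. By edgeR, 1.15% of all genes were called lower in this class, which is not the share without overlap. Cone-like barcodes held more PLA2G5 than rod-like ones in control, 102 ± 27.3 against 64.7 ± 13.1 CPM, and these ranges did not overlap. Over graft the ranges of both classes overlapped.

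PLA2G5 was a scarce transcript. Thinned to 500 UMIs, 1.04% of rod-like barcodes over graft and 4.04% in control had it in LG5, 1.33% and 2.93% for RC726, and 0.416% and 2.32% for RC724. In Müller glia-like barcodes the thinned share was at most 0.0972% over graft and 0.411% in control, and the level after subtraction of free RNA was below 0 in all 6 libraries. In amacrine-like barcodes it was seen with 3, 0 and 0 UMIs over graft and 9, 1 and 2 UMIs in control (LG5, RC726, RC724). These counts are too few for a ratio.

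SLC6A6, the taurine transporter, was the most evenly spread of the 4 genes across rod-like and cone-like barcodes. In rod-like barcodes it had 104 CPM over graft and 437 CPM in control in LG5, 241 and 559 CPM in RC726, and 161 and 582 CPM in RC724. The means were 169 ± 68.9 CPM over graft and 526 ± 77.9 CPM in control, and no library over graft reached the lowest control library. The log2 difference averaged -1.71 ± 0.44 (SD, n = 3 pairs), the smallest spread between experiments among the 4 genes in this class. In cone-like barcodes it had 104 CPM over graft and 481 CPM in control in LG5, 374 and 567 CPM in RC726, and 238 and 534 CPM in RC724, which gave -1.32 ± 0.81. In control, the ranges of cone-like and rod-like barcodes overlapped, so their order cannot be told from these libraries.

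Bipolar cells, the interneurons that receive the photoreceptor signal, also carried SLC6A6. Bipolar-like barcodes had 106 CPM over graft and 204 CPM in control in LG5, 188 and 249 CPM in RC726, and 197 and 262 CPM in RC724. The groups did not overlap, and the log2 difference, -0.58 ± 0.30, was smaller than in rod-like barcodes in each experiment. By edgeR, 0.0310% of all genes were called lower in this class, which is not the share without overlap. Ordered by fitted log2 change from the lowest, SLC6A6 was number 440 of 12886 genes there. After subtraction of free RNA the bipolar-like level was 136 to 219 CPM over graft and 197 to 270.2 CPM in control, so it was not background. In amacrine-like barcodes, inhibitory interneurons, SLC6A6 had 33.8 CPM over graft and 51.0 CPM in control in LG5, 42.9 and 52.0 CPM in RC726, and 40.1 and 54.5 CPM in RC724, a log2 difference of -0.43 ± 0.15 in a class with 0.0683% of genes called lower. That difference did not stand after free RNA was subtracted, where it was 0.27 in the other direction. Müller glia-like barcodes had 17.4, 19.3 and 19.4 CPM over graft and 57.9, 25.9 and 17.4 CPM in control (LG5, RC726, RC724), and the control values came out below 0 after subtraction.

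At equal depth, the share of rod-like barcodes with an SLC6A6 UMI was 4.86% over graft and 18.6% in control in LG5, 11.4% and 23.9% for RC726, and 7.84% and 26.1% for RC724. In cone-like barcodes the thinned shares were 5.51% and 21.3%, 14.4% and 20.6%, and 11.03% and 22.8%, in the same order of experiments with over graft before control. Müller glia-like barcodes stayed between 0.823% and 2.34% in the 6 libraries. Both photoreceptor classes thus had fewer barcodes with the transcript over graft in each experiment.

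**Figure D2:**
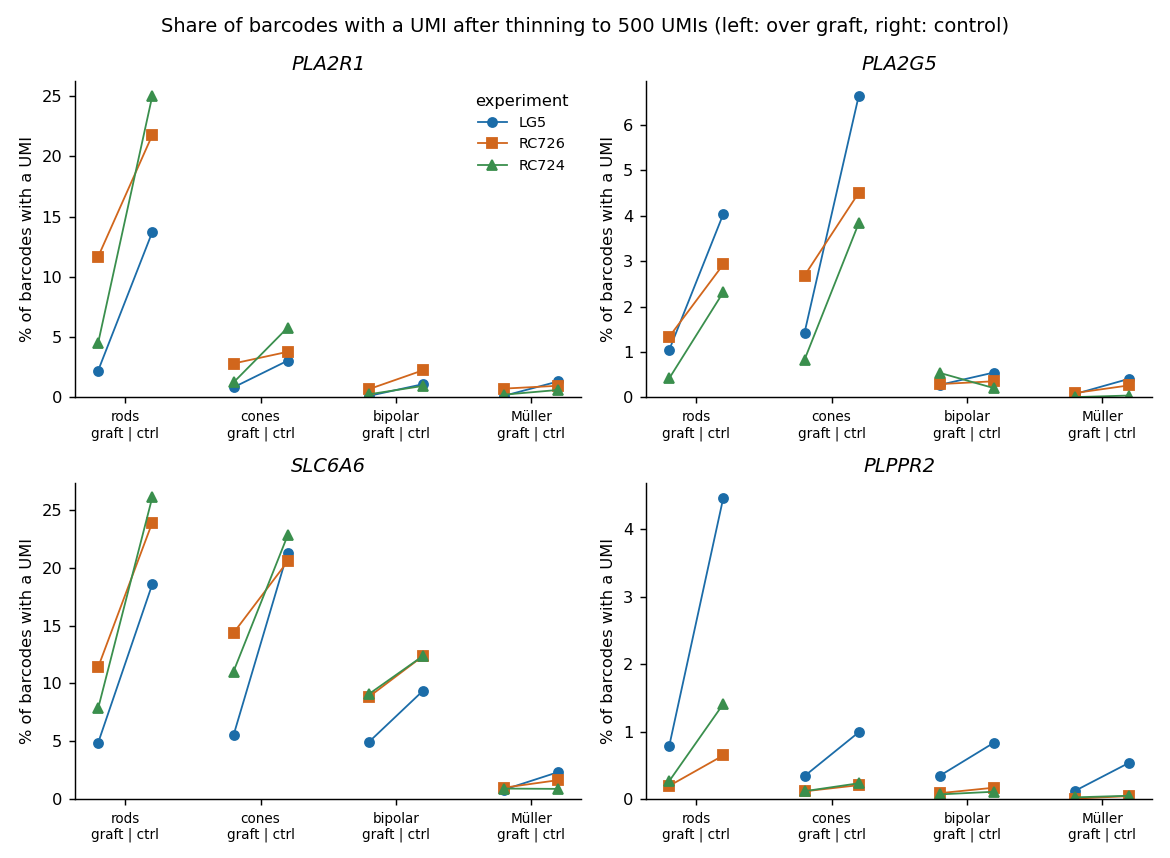
Percent of barcodes with at least 1 UMI of each gene after thinning to 500 UMIs, in 4 classes (x axis), over graft on the left and control on the right. In rod-like barcodes PLA2R1 lies at 2.22% to 11.7% over graft and 13.7% to 24.99% in control, and in Müller glia-like barcodes at or below 1.33% in both.

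PLPPR2 was scarce, and its level in rod-like barcodes depended on the experiment. In rod-like barcodes it had 15.9 CPM over graft and 86.3 CPM in control in LG5, 3.64 and 11.4 CPM in RC726, and 5.03 and 25.1 CPM in RC724. The groups overlapped, because LG5 was high in both punches, yet each punch over graft lay below its own control. The log2 difference averaged -1.97 ± 0.49 (SD, n = 3 pairs), with -2.37 in LG5, -1.42 in RC726 and -2.11 in RC724. The counts were small outside LG5, with 58 and 70 UMIs over graft and 157 and 231 UMIs in control in RC726 and RC724. In cone-like barcodes there were 8 to 11 UMIs over graft and 14 to 34 in control, and the groups overlapped.

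Amacrine-like barcodes carried PLPPR2 at a level like that of rod-like barcodes. They had 25.4 CPM over graft and 41.2 CPM in control in LG5, 14.3 and 28.5 CPM in RC726, and 8.67 and 13.1 CPM in RC724. The log2 difference, -0.72 ± 0.20, rested on 8 to 24 UMIs over graft and 13 to 25 in control. Subtraction of free RNA left these levels nearly as they were, at 9.66 to 30.7 CPM over graft and 14.1 to 42.2 CPM in control. In cone-like barcodes PLPPR2 also stayed above 0 after subtraction in all 6 libraries, at 2.76 to 5.21 CPM over graft and 3.799 to 7.95 CPM in control.

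**Figure D3:**
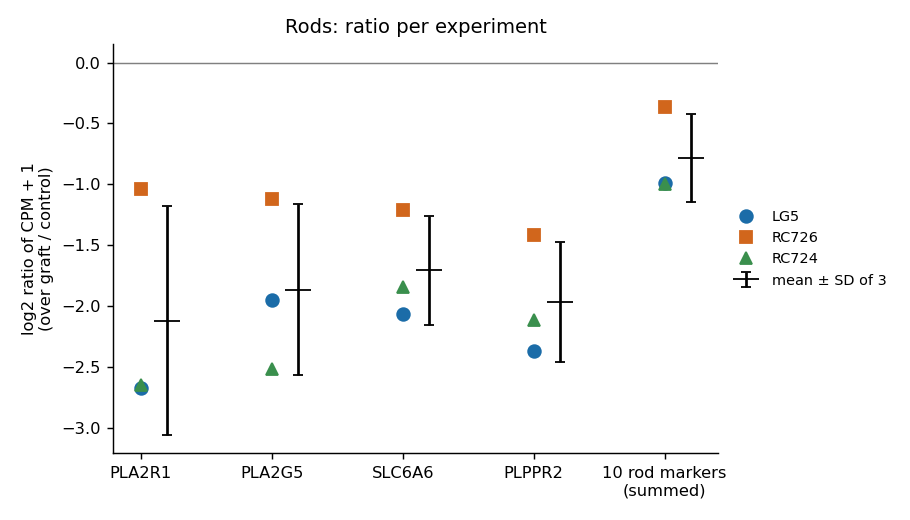
Log2 ratio of CPM + 1 in rod-like barcodes (y axis, over graft against control) for the 4 genes and for 10 rod marker genes summed. Points are experiments and bars are the mean ± SD of 3 pairs. All points lie below 0, RC726 is the least negative for each gene, and the rod markers average -0.78.

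The rod markers themselves were lower over graft. The 10 marker genes summed had log2 ratios of -0.99 (LG5), -0.37 (RC726) and -0.997 (RC724), with a mean of -0.78 ± 0.36 (SD, n = 3 pairs). These genes also defined the class, so this is a description. Set against rod marker UMIs of the same barcodes, a comparison chosen after the data were seen, the log2 ratios were -1.34 ± 0.58 for PLA2R1, -1.08 ± 0.40 for PLA2G5, -0.92 ± 0.13 for SLC6A6 and -1.18 ± 0.17 for PLPPR2. Each was below 0 in every experiment, so the 4 transcripts were lower over graft also relative to the rod markers. The median percent of mitochondrial UMIs in rod-like barcodes was 3.10% over graft and 4.33% in control in LG5, 3.52% and 1.98% for RC726, and 4.04% and 2.66% for RC724, and it did not move in 1 direction with the genes.

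Barcode depth gave the same picture. Rod-like barcodes were split by UMIs, again after the data were seen, into bins that start at 500, 1000 and 2000 UMIs. PLA2R1 had log2 ratios of -2.13, -2.07 and -2.13 over these bins, and SLC6A6 had -1.64, -1.78 and -1.68. PLA2G5 gave -1.52, -1.87 and -1.94, and PLPPR2 gave -2.51, -2.19 and -1.73. All 36 single values, 4 genes in 3 bins of 3 experiments, were below 0, in the contrast that chose the genes. Some rest on few counts. In the lowest bin PLPPR2 had 2 UMIs over graft in RC726 and 2 in RC724, too few for a ratio. PLA2G5 had 6 UMIs over graft and 15 in control in that bin of RC724.

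Among all genes fitted in rod-like barcodes, the 4 lay near the lower end. Ordered by the fitted log2 change from the lowest, PLPPR2 was number 26, PLA2R1 number 30, PLA2G5 number 50 and SLC6A6 number 75 of 15130 genes. In that fit 2957 genes (19.5%) were called in either direction. In cone-like barcodes the order was PLA2G5 at 12, PLA2R1 at 18, SLC6A6 at 38 and PLPPR2 at 76 of 11909 genes. In bipolar-like barcodes PLA2R1 was number 2, SLC6A6 number 440 and PLA2G5 number 4854 of 12886 genes. In Müller glia-like barcodes PLPPR2 was number 8, PLA2G5 number 9, PLA2R1 number 14 and SLC6A6 number 560 of 15783. Low places thus also occurred where a transcript was at background: PLA2R1 was below 0 after subtraction of free RNA in 5 of 6 libraries in bipolar-like barcodes, and PLA2R1 and PLA2G5 in all 6 in Müller glia-like ones. In amacrine-like barcodes PLPPR2 was number 194 and SLC6A6 number 790 of 10246, and in horizontal-like barcodes SLC6A6 was number 1121 of 5959. These places follow from how the genes were chosen.

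In the whole punch, with all retained barcodes summed, the log2 ratios were -2.14 ± 0.82 for PLA2R1, -1.72 ± 0.48 for PLA2G5, -1.45 ± 0.43 for SLC6A6 and -1.56 ± 0.43 for PLPPR2 (SD, n = 3 pairs). Fewer cells of a type and less RNA per cell cannot be told apart in such sums. PLA2R1 had 14.8 CPM over graft and 115 CPM in control in LG5, 103 and 247 CPM in RC726, and 30.3 and 153 CPM in RC724. The whole-punch values therefore need no class limit to show lower levels over graft.

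Rods over graft differed in how many interferon transcripts they carried, which allowed a comparison inside the graft punches that did not choose the genes. Interferon-stimulated genes such as MX1 and ISG15 encode antiviral proteins that cells make on exposure to interferon. Of 25 listed genes, 23 were in the files, and rod-like barcodes with at least 2 of their UMIs were compared with those that had 0. There were 4649 and 1103 such barcodes for LG5, 2226 and 2287 for RC726, and 3348 and 910 for RC724, interferon-positive before interferon-negative. A further 1000, 1220 and 951 barcodes with 1 UMI lay between them. The positive barcodes were deeper, with a median of 984 against 714 UMIs for LG5, 3820 against 1384 for RC726 and 2955 against 1268 for RC724, and values within a narrower range of depth follow.

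PLA2R1 was lower in the interferon-positive barcodes of all 3 libraries. It had 35.6 CPM in positive and 110.5 CPM in negative barcodes in LG5, 229 and 314 CPM in RC726, and 93.6 and 138 CPM in RC724, a mean log2 ratio of -0.87 ± 0.64 (SD, n = 3 pairs). By an exact two-sided sign-flip test over the pairs, p was 0.25, the smallest that 3 pairs allow, and 0.333 after Benjamini-Hochberg adjustment over the 4 genes. SLC6A6 had 92.5 CPM in positive and 137 CPM in negative barcodes in LG5, 204 and 284 CPM in RC726, and 159 and 165 CPM in RC724. Its mean log2 ratio was -0.37 ± 0.27, with an exact p of 0.25 and the same adjusted value. PLPPR2 averaged -0.53 ± 0.60, lower in 3 of 3 libraries but at -0.0045 in RC724, with an exact p of 0.25 (0.333 adjusted). PLA2G5 averaged -0.78 ± 0.96, lower in 2 of 3 libraries, with an exact p of 0.5 (0.5 adjusted). In RC724 the negative barcodes held only 7 UMIs of PLPPR2 and 11 of PLA2G5. The design could not reach 0.05, so no call is made for any of the 4.

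The interferon-negative rod-like barcodes over graft did not reach the control level. They held 110.5, 314 and 138 CPM of PLA2R1 (LG5, RC726, RC724), against 306, 553 and 629.8 CPM over all rod-like barcodes in control. This returns to the contrast that chose the genes and is a description. Control barcodes were not split by interferon UMIs. At the median depths of 714, 1384 and 1268 UMIs, a barcode with 0 interferon UMIs can still come from a cell with such transcripts. Rod-like barcodes of 1000 to 3000 UMIs, a range chosen after the data were seen, were also compared alone. Interferon-positive barcodes stayed deeper there, with medians of 1480 against 1235.5 UMIs (LG5), 1826 against 1417 (RC726) and 1824 against 1477.5 (RC724). The log2 ratio of interferon-positive to interferon-negative barcodes in this range was -0.96 ± 0.95 for PLA2R1 and -0.43 ± 0.41 for SLC6A6. PLA2R1 was lower in 3 of 3 libraries and SLC6A6 in 2 of 3. PLA2G5 averaged -0.85 ± 1.48 in that range, lower in 2 of 3 libraries and at 0.85 in RC724, from 27 UMIs in positive and 4 in negative barcodes. PLPPR2 averaged -0.28 ± 0.71, lower in 2 of 3 libraries.

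**Figure D4:**
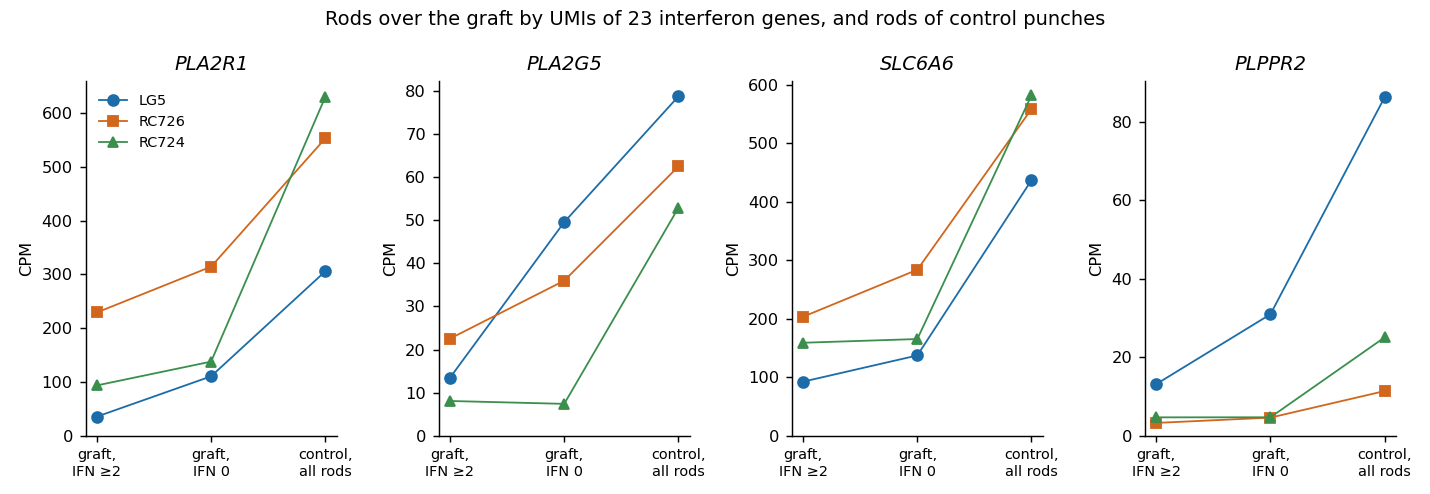
Levels in CPM (y axis) of the 4 genes in rod-like barcodes over graft with at least 2 UMIs of interferon genes, in those with 0, and in all rod-like barcodes of the control punch, with 1 line per experiment. For PLA2R1 the interferon-negative barcodes lie at 110.5, 314 and 138 CPM, above the positive ones and below control in each experiment.

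The genes around these 4 in lipid and taurine biology moved in both directions. Of 105 genes in 6 lists, 59 could be tested in rod-like barcodes, where 5 rose (8.47%) and 9 fell (15.3%) over graft at an adjusted p under 0.05, beside 10.1% and 9.47% of all tested genes. The median log2 change was 0.07 over the list genes and 0.01 over all genes. In cone-like barcodes 1 of 51 tested list genes rose and 1 fell, beside 2.57% and 1.15% of all genes. In Müller glia-like barcodes 0 of 65 were called, while 0.608% of all genes were. There, 19 of the 65 had an unadjusted p under 0.05, beside 2178 of all 15783 genes. DESeq2 called 4 list genes, beside 333 of all 14457 genes it tested. Without experiment RC724 the rod-like calls numbered 1147 over all genes, against 2957 with it, and 7 over the list genes, against 14.

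Of the partners of PLA2R1 and PLA2G5, the other secreted phospholipases A2 were mostly too scarce to test. In rod-like barcodes 4 of 15 genes of the secreted enzymes and the receptor family passed the filter on low counts. Of these 1 rose, beside 10.1% of all genes tested. That gene, MRC2, a collagen receptor of the same mannose receptor family as PLA2R1, changed by 1.04 ± 0.23 (log2, SE, adjusted p = 0.0136). It had 4.22, 10.54 and 7.04 CPM over graft and 2.40, 4.06 and 3.91 CPM in control (LG5, RC726, RC724). PLA2G12A, a secreted phospholipase A2, was measured at 15.7 to 29.2 CPM over graft and 12.4 to 24.9 CPM in control and did not pass the test (log2 change 0.20 ± 0.14, adjusted p = 0.349).

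Of 9 intracellular phospholipase genes tested in rod-like barcodes, 2 fell and 1 rose, beside 9.47% and 10.1% of all genes. PNPLA3, a lipase and acyltransferase of lipid droplets, had 34.9, 52.2 and 33.9 CPM over graft and 119, 82.0 and 102 CPM in control, a change of -1.35 ± 0.20 (adjusted p = 0.00165). The groups did not overlap. PNPLA2, the adipose triglyceride lipase, changed by -0.67 ± 0.13 (adjusted p = 0.00564). PLAAT3, a phospholipase that degrades the membranes of organelles in the lens of mice and fish, rose by 1.01 ± 0.26 (adjusted p = 0.0255), at 12.2, 2.51 and 2.59 CPM over graft and 4.69, 1.23 and 1.74 CPM in control. The median of the list was -0.08.

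Enzymes that turn released fatty acids into prostaglandins and leukotrienes were at low levels in rods. Of 8 tested, 2 fell, beside 9.47% of all genes in rod-like barcodes. ALOX5AP, which presents arachidonic acid to 5-lipoxygenase and is known from myeloid cells, had 2.34, 2.51 and 0.790 CPM over graft and 4.93, 5.81 and 5.75 CPM in control (log2 change -1.64 ± 0.34, adjusted p = 0.00863). PTGES2, a prostaglandin E synthase, changed by -0.64 ± 0.18 (adjusted p = 0.0317). The list median was -0.31.

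Among 13 tested taurine and osmolyte genes, 2 fell and 2 rose in rod-like barcodes, beside 9.47% and 10.1% of all genes. SLC16A6, a monocarboxylate transporter that carries taurine in human and mouse cells, had 56.6, 65.6 and 53.6 CPM over graft and 152, 110.5 and 109 CPM in control, a change of -1.09 ± 0.15 (adjusted p = 0.00101). The groups did not overlap. PTER, which hydrolyses N-acetyltaurine in mice, changed by -0.75 ± 0.14 (adjusted p = 0.00542). CDO1, the cysteine dioxygenase at the start of taurine synthesis, rose by 0.71 ± 0.16 (adjusted p = 0.0128), and LRRC8D, a subunit of the volume-regulated anion channel that lets taurine out, rose by 0.50 ± 0.12 (adjusted p = 0.0182). CSAD, which acts after CDO1 in that synthesis, did not pass (log2 change -0.27 ± 0.17, adjusted p = 0.299). The list median was 0.11. Over all libraries, CDO1 averaged 982 CPM in horizontal-like barcodes, against 51.4 CPM over the other classes. Free RNA was not subtracted for list genes, so carry-over of CDO1 into rod-like barcodes was not tested.

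The list around PLPPR2 joins the lipid phosphate phosphatase family with lysophosphatidate genes, and its 12 tested genes included 1 call, outside that family. That call was a rise, and 10.1% of all genes were called higher in rod-like barcodes. LPAR6, a receptor for lysophosphatidic acid, had 125, 68.6 and 122 CPM over graft and 12.4, 8.42 and 22.7 CPM in control in rod-like barcodes, a rise of 2.87 ± 0.16 (adjusted p = 1.03e-05). The lowest library over graft lay above the highest control library. LPAR6 also rose in cone-like barcodes by 2.06 ± 0.25 (adjusted p = 0.000395) and in bipolar-like barcodes by 2.39 ± 0.32 (adjusted p = 0.0174), where 0.233% of all genes were called higher. The bipolar-like call was lost without LG5 and reached an adjusted p of 0.847 over the blocked alternatives. PLPPR1 and PLPPR4, the relatives of PLPPR2 that were measured in rod-like barcodes along with PLPPR5, did not pass the test, with log2 changes of 0.14 ± 0.35 and 0.14 ± 0.32.

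Genes for the polyunsaturated lipids of photoreceptor membranes gave 3 falls and no rise among 13 tested in rod-like barcodes. Of all genes in this class, 9.47% were called lower and 10.1% higher. LPCAT1, which remodels phosphatidylcholine and whose loss in mice causes photoreceptor degeneration, had 174, 148 and 102 CPM over graft and 293, 208 and 212 CPM in control (log2 change -0.80 ± 0.12, adjusted p = 0.00227). TMEM135 changed by -0.55 ± 0.12 (adjusted p = 0.0098). ELOVL2, an elongase on the way to docosahexaenoic acid, changed by -0.45 ± 0.12 in rod-like barcodes (adjusted p = 0.0248) and by -0.80 ± 0.19 in cone-like barcodes (adjusted p = 0.0307). The list median was -0.03 in rod-like barcodes.

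**Figure D5:**
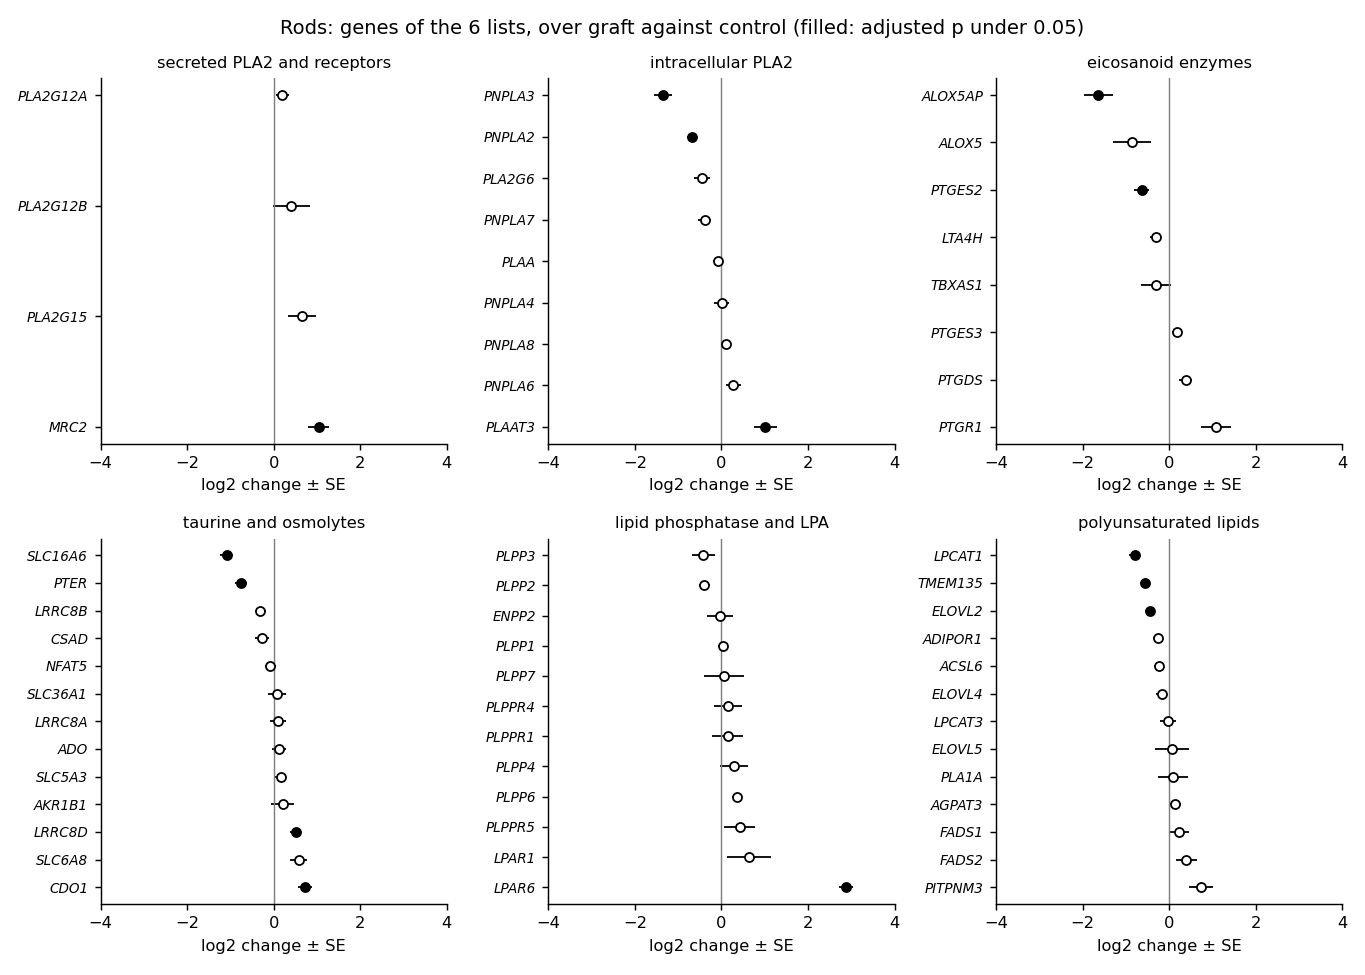
Log2 change (x axis, over graft against control, ± SE) in rod-like barcodes of the tested genes of 6 lists, without the 4 chosen genes. Filled points passed an adjusted p under 0.05: 5 genes to the right of 0, led by LPAR6 at 2.87, and 9 to the left, led by ALOX5AP at -1.64.

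The calls of single list genes rested on all 3 experiments to different degrees. Without RC724, 7 of the 14 rod-like calls were lost (ALOX5AP, ELOVL2, LRRC8D, MRC2, PLAAT3, PTGES2 and TMEM135). Without LG5, 3 were lost (CDO1, ELOVL2 and PLAAT3), and without RC726 3 were lost (MRC2, PLAAT3 and PTGES2). The highest adjusted p over the blocked alternatives was 0.0625 for ALOX5AP, 0.139 for ELOVL2, 0.182 for LRRC8D, 0.184 for MRC2, 0.137 for PLAAT3, 0.262 for PTGES2, 0.0642 for TMEM135 and 0.147 for CDO1. In cone-like barcodes ELOVL2 was lost without RC724, with a highest adjusted p of 0.254. PLAAT3 kept its call in 3 and PTGES2 in 4 of 10 alternative settings, and both were lost with DESeq2, the stricter class limit and the stricter barcode filter. LPAR6 in bipolar-like barcodes kept its call in 6 of 10 and was lost with both stricter limits. PNPLA3, PNPLA2, PTER, LPAR6, LPCAT1 and SLC16A6 in rod-like barcodes kept theirs in 9 of 10 settings, losing it without the block.

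The 4 genes were also set beside all genes by their pattern over the 36 sums of 6 classes in 6 libraries. Pearson's r of log2(CPM + 10) is given as a description, since sums of a library share its depth. Among 10565 genes, PLA2R1 was most like NXNL1 (r = 0.926), which encodes the rod-derived cone viability factor, then FMNL3 (0.910), ZDHHC6 (0.907), LOC111093850 (0.898) and CNGB1 (0.898), a subunit of the rod cyclic nucleotide-gated channel. PLA2G5 was most like GUCA1A (0.941), the guanylate cyclase activator of photoreceptors, followed by LOC119871239, LOC102155232, RNF41 and LOC119871796 (0.915 to 0.930). SLC6A6 was most like LOC111097174 (0.947), then CCSER2, AKNAD1, GLMN and PPP3CC (0.918 to 0.923). PLPPR2 had weaker partners, LOC102153410 (0.814), LIG3, TSPYL2, ARFGAP2 and CLTA (0.771 to 0.791).

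Between the 4 genes, r was 0.827 for PLA2G5 with SLC6A6, 0.794 for PLA2R1 with PLA2G5 and 0.745 for PLA2R1 with SLC6A6. The sums hold both kinds of punch, and the genes were chosen for lower counts over graft, so that choice enters these values. An r within control punches alone was not computed. PLPPR2 stood apart, at 0.341 with PLA2R1, 0.336 with PLA2G5 and 0.225 with SLC6A6. The first 3 genes shared high levels in photoreceptor classes, while PLPPR2 was also high in amacrine-like barcodes and in both LG5 punches.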

How the data were processed

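The authors deposited tables of unnormalised UMI counts for each barcode. Per the file headers, Cell Ranger 6.0.2 made those of LG5, 7.1.0 those of RC726 over graft and of both RC724 punches, and 7.0.0 that of the RC726 control. Libraries were 3' v3.1, per the labels' protocols. How intron reads were used, the genome build and any separation of human reads are not stated in these sources. The genes and gene lists were chosen with earlier results of these data known.

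A barcode was kept with 300 or more genes detected and with 13 mitochondrial genes making up 20% of its UMIs or less. A class needed at least 3 marker UMIs from at least 2 marker genes and a marker share of at least 2 times the library's mean, or, for rods, at least 0.333 of the library's 90th percentile. Barcodes passing several class limits (4.41% to 10.1%) or none (15.9% to 24.7%) were left out, which is how doublets were treated. No doublet caller was run. Free RNA in a class was estimated as the ratio of its rod marker share (Müller glia markers for rods) to that of the whole library, and subtracted in proportion. The subtraction was made for the 4 genes only, not for list genes. Thinned shares are the expected share at 500 UMIs.

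UMIs were summed per class and library. Genes other than the 4 were tested with edgeR 4.0.16 in R 4.3.3 (quasi-likelihood, filterByExpr, TMM, experiment as a block, Benjamini-Hochberg at 0.05 over all genes of a class). The rest used scipy 1.17.1, pandas 2.3.3, numpy 2.4.6 and matplotlib 3.10.9 in Python 3.11.15. The block follows from the pairing of punches within a retina. Deviations of same-experiment punches correlated at 0.965, 0.910 and 0.935 over 7069 genes in rod-like barcodes. Punches of RC726 and RC724 also correlated across experiments, at 0.778 and 0.812, and LG5 with either at -0.931 to -0.884, so much of this is LG5 standing apart. Where separate dogs are not stated, p-values measure the spread between these experiments, which may be technical. Alternatives were no block, DESeq2 1.42.0, its size factors, no filter on low counts, a stricter class limit, a stricter barcode filter, no barcodes of the top 6% by UMIs, a pseudocount of 5 CPM and each experiment left out. The text names, per list, genes past the threshold in rod-like barcodes with one direction in 3 experiments (up to 6), and up to 3 in cone-like and Müller glia-like ones, plus the 5 genes most like each of the 4. PLA2G12A, CSAD, PLPPR1, PLPPR4 and the LPAR6 result in bipolar-like barcodes were added after their values were seen. Of 34981 gene names, 33363 match a RefSeq symbol. The values of 1 single rod marker are not reported here.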

Additional observations from a re-analysis of the deposited data

How the results depend on the processing

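Of 127 values of the 4 genes recomputed under alternatives, 122 moved by less than 1 SD, 4 moved by more and 1 reversed. The reversed one was SLC6A6 in amacrine-like barcodes, 0.27 with free RNA subtracted against -0.43. Per rod marker UMI, PLA2G5, SLC6A6 and PLPPR2 in rod-like barcodes were at -1.08, -0.92 and -1.18, and PLPPR2 was at -2.51 in barcodes of fewer than 1000 UMIs. The value of -2.51 includes 2 UMIs over graft in RC726 and 2 in RC724. All 24 values of the interferon comparison stayed within their SD. Without the replicate block, 0 genes were called in rod-like, cone-like, Müller glia-like and bipolar-like barcodes and in the whole punch (587, 205, 184, 52 and 343 with an unadjusted p under 0.05), and 0 list genes in rod-like barcodes (5 at an unadjusted p under 0.05). With no filter on low counts, 997 genes were called in cone-like, 1121 in Müller glia-like and 546 in bipolar-like barcodes and 2389 in the whole punch, against 443, 96, 34 and 905 in the main setting. DESeq2 with the block called 244 in cone-like and 333 in Müller glia-like barcodes and 2094 in the whole punch, and without the top barcodes 363 were called in Müller glia-like and 22 in bipolar-like ones. The stricter class limit called 8 and the stricter barcode filter 3 in bipolar-like barcodes. With 1 experiment left out, calls ranged from 1147 to 2778 in rod-like, 171 to 789 in cone-like, 1 to 839 in Müller glia-like and 0 to 774 in bipolar-like barcodes, from 578 to 1143 in the whole punch, and from 7 to 13 over the list genes in rod-like barcodes. The cause was not tested. Of 170 values of single list genes, 40 were no longer past the threshold and none changed sign.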

Other observations

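SLC6A6 was also measured in the few endothelial-like and microglia- or macrophage-like barcodes. Endothelial cells of the inner retinal vessels are known in the rat to take up taurine through this transporter. Endothelial-like barcodes numbered 45, 6 and 14 over graft and 5, 8 and 12 in control (LG5, RC726, RC724), and their summed SLC6A6 was 48.2, 185 and 325 CPM over graft and 161, 556 and 261 CPM in control. These sums rest on 11, 14 and 45 UMIs over graft and 4, 56 and 32 UMIs in control, and the groups overlapped. Microglia- or macrophage-like barcodes had 31.9, 109 and 124 CPM over graft and 42.2, 96.5 and 81.1 CPM in control, from 68, 11 and 26 UMIs over graft and 22, 11 and 1 UMI in control. PLA2R1 had 2, 0 and 0 UMIs in the endothelial-like barcodes over graft and 3, 0 and 3 UMIs in control (LG5, RC726, RC724). So few barcodes and UMIs cannot tell absence from a low level.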
